A study of Mus musculus with 240 samples.

Results

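Gliomas of mice labelled as lacking Nf1 and Trp53 were compared with oligodendrocyte precursor cells (OPCs) of the same genotype taken at an earlier time, when the labels do not call them tumour. The members were the bulk RNA-seq libraries labelled as tumour at 150 days and those labelled CKO at 90 days after tamoxifen was started (dpi). Libraries of 1 animal were summed, which gave 7 tumour animals (14 libraries) and 7 CKO animals (10 libraries), or 24 of the 240 libraries of the series and 14 of its 37 bulk animals. Both groups carry the genotype given as Trp53-/- Nf1-/-, both received tamoxifen, and in both the tdTomato-positive cells were cut by laser capture microdissection from 10 µm brain sections. The tumour group held 3 females and 4 males, and the CKO group 4 females and 3 males. Wild-type OPCs at 90 dpi (5 animals) and at 150 dpi (6 animals), also after tamoxifen, give the same interval without the mutations. The promoter that drives the recombinase, the strain and the animals' age are not given in the sources used here. Tumour and CKO cells differ in time as well as in state, and these cannot be told apart. The wild-type interval shows only how wild-type cells changed between 90 and 150 dpi.

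OPCs are dividing glial progenitors that persist throughout the adult brain and give rise to myelinating oligodendrocytes. They are recognised by the platelet-derived growth factor receptor Pdgfra and the proteoglycan Cspg4. Nf1 encodes neurofibromin, which switches RAS off and so restrains the MAPK cascade downstream of growth factor receptors. Trp53 encodes p53, which stops the cell cycle or triggers cell death after DNA damage, and joint loss of both genes in the OPC lineage is used in mice as a model of glioma.

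Levels are given per animal as CPM, the counts of a gene per 1000000 counts, scaled by edgeR's TMM factors, and as the lowest to the highest of 7 animals with the median. A log2 change is tumour minus CKO from edgeR's quasi-likelihood fit of all 37 bulk animals with sex as a covariate. All groups share 1 estimate of a gene's spread, so the p-values do not measure the spread among tumours by itself. A gene was called when its Benjamini-Hochberg adjusted p was under 0.05. Where a gene is said to go from one level to another, these are the CKO median and the tumour median, and the gene was called. Total counts, in units of 1000000, ran from 4.91 to 31.3 per tumour (median 24.0) and from 4.11 to 30.0 per CKO animal (median 19.1), and a median of 20131 and 18611 genes had a count. Tumours varied more among themselves: the median SD of a gene's log2 CPM was 0.67 in tumours and 0.41 in CKO animals. One CKO animal, CKO_20647, stood apart. Of its 2 libraries, 1 detected 13265 genes at a total count of 9.47 and the other 17957 at 9.67, in the same units. Its 16 neuron markers summed to 18150.4 CPM against 9491 to 11511 CPM in the other 6, its astrocyte markers summed to 8624 CPM against 3788 to 4878 CPM, and its OPC markers had the lowest sum of the group, 3443 CPM. Library titles of all 7 tumours and 3 of the 7 CKO animals carry a run of bases as a suffix, whose meaning is not given in the sources used here. Copies of nearly identical sequence make the counts of Tuba1c, Hmgb2, Ccna2 and Slc38a6 uncertain, because the counting could split reads among them. Rb1, Rrm2, Uhrf1, Fgfr2, Aldoa and H2-K1, among others described below, also share such sequence with another gene, and the same caution applies.

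Markers of OPCs were present in both groups. All 20 OPC markers had counts in every tumour and every CKO animal, and they summed to 6216 to 14483 CPM in tumours and 3443 to 5444 CPM in CKO animals. The CKO captures also held RNA of neuron genes, with neuron markers at 9491 to 18150.4 CPM, as did wild-type captures at 150 dpi with 9156 to 13027 CPM. In tumours the same markers summed to 334 to 1946 CPM. The sums of the 2 mutant groups do not overlap. Their part in the other differences was not tested. In bulk captures, fewer cells of a type and less RNA per cell cannot be told apart.

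Tumours differed from CKO cells in 8023 of 16349 genes tested. Of these, 4320 were higher in tumours, which is 26.4% of the genes tested, and 3703 were lower, which is 22.6%. With RLE size factors instead of TMM factors the median gene moved from a log2 change of 0.12 to 0.29, and the calls became 5372 higher and 3083 lower, so directions are given relative to TMM. All 7 tumours lay above all 7 CKO animals in 1107 genes (6.77%) and below all of them in 1713 genes (10.5%). A log2 change of at least 4 was seen in 256 called genes that were higher and 154 that were lower. Without CKO_20647 there were 7792 calls, 4256 higher and 3536 lower. Among animals whose libraries carry the suffix there were 6231 calls, 3034 higher and 3197 lower. A fit of the compared groups alone gave 6527 calls, 3432 higher and 3095 lower.

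The genes labelled as deleted were read in every animal. Nf1 (ENSMUSG00000020716, chromosome 11, 79339693 to 79581612) was at 149 to 273 CPM (median 217) in tumours and 149.5 to 302 CPM (median 177) in CKO animals, a log2 change of 0.11 (SE 0.13, edgeR adjusted p = 0.482). Its ranges overlap almost fully. Wild-type animals at 150 dpi had 252 to 355 CPM (median 290.0) of Nf1. Trp53 (ENSMUSG00000059552, chromosome 11, 69580359 to 69591873) was at 18.5 to 77.8 CPM (median 41.6) in tumours and 15.9 to 38.5 CPM (median 28.4) in CKO animals, a log2 change of 0.70 (SE 0.22, edgeR adjusted p = 0.00889). Wild-type animals at 150 dpi had 11.3 to 33.7 CPM (median 27.1) of Trp53. Median Nf1 RNA was thus lower in both mutant groups than in wild type but not absent, and median Trp53 RNA was not lower. The deposited values do not show which exons the reads came from, so they are no check of the genotype given in the labels.

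The 12 largest rises were taken among called protein-coding genes with a mean log2 CPM above the median, no overlap between the groups, and a call that held without any single animal. They fall into a few kinds. Cenpf, Top2a, Aspm, Mki67, Hmgb2 and Ccna2 belong to the chromosome and cell division machinery. Col2a1 and Col11a1 encode fibrillar collagens of cartilage. Myc encodes a growth-promoting transcription factor, Tuba1c an alpha-tubulin, Nxf3 a member of the nuclear RNA export factor family, and Ifitm3 an interferon-induced membrane protein that restricts virus entry.

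Nxf3 was at 16.6 to 309.6 CPM (median 77.2) in tumours and 0 to 2.94 CPM (median 0.417) in CKO animals, a log2 change of 7.07 (SE 0.69, edgeR adjusted p = 1.1e-10). Every tumour lay above every CKO animal. Ifitm3 was at 24.1 to 454 CPM (median 106) in tumours and 2.76 to 11.3 CPM (median 8.44) in CKO animals, a log2 change of 4.37 (SE 0.51, edgeR adjusted p = 5.3e-09). Aspm, which holds microtubules at spindle poles, was at 54.8 to 305 CPM (median 146) in tumours and 1.23 to 9.97 CPM (median 4.14) in CKO animals, a log2 change of 4.93 (SE 0.54, edgeR adjusted p = 1.3e-09). Hmgb2, a chromatin protein abundant in dividing cells, was at 37.0 to 1386 CPM (median 84.7) in tumours and 3.58 to 19.1 CPM (median 10.9) in CKO animals, a log2 change of 4.70 (SE 0.67, edgeR adjusted p = 3.5e-07). Separation of the groups in these genes was a condition of the choice, not a result. Leaving out 1 animal moved some of these changes by more than 1.5 times: Nxf3 at 7.83 without CKO_20647, Tuba1c at 6.26 without CKO_20647 and Hmgb2 at 3.56 without Tumor_16839.

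The 12 largest falls were chosen by the same rule. Kcnh3 and Trdn encode a voltage-gated potassium channel and the calcium release protein triadin. Npas4 is a transcription factor induced by neuronal activity, Penk the precursor of enkephalin peptides, Nrgn the postsynaptic calmodulin-binding protein neurogranin, and Pcp4 another calmodulin-binding protein. Epha6 is an ephrin receptor and Prokr2 the receptor of prokineticin 2. The others were Ankrd63, Ipcef1 and the zinc-finger genes Zfp831 and Sp7, the latter best known from bone formation.

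Ipcef1 was at 3.16 to 12.0 CPM (median 7.10) in tumours and 256 to 428 CPM (median 382) in CKO animals, a log2 change of -5.77 (SE 0.22, edgeR adjusted p = 2.5e-21). Pcp4 was at 4.07 to 37.1 CPM (median 15.6) in tumours and 482 to 1047 CPM (median 655) in CKO animals, a log2 change of -5.54 (SE 0.38, edgeR adjusted p = 9.1e-15). Sp7 was at 0 to 1.51 CPM (median 0.351) in tumours and 25.4 to 62.6 CPM (median 56.9) in CKO animals, a log2 change of -5.95 (SE 0.32, edgeR adjusted p = 1.1e-17). By the rule of choice all tumours lay below all CKO animals in the 3 genes, and for Sp7 and Ipcef1 CKO_20647 was the lowest of its group. Prokr2 was at 0.539 to 3.22 CPM (median 1.73) in tumours and 44.7 to 135 CPM (median 67.3) in CKO animals, a log2 change of -5.63 (SE 0.30, edgeR adjusted p = 1.7e-17). Nrgn was at 0.808 to 6.48 CPM (median 1.52) in tumours and 52.2 to 457 CPM (median 64.9) in CKO animals, a log2 change of -5.83 (SE 0.46, edgeR adjusted p = 5.7e-13). Its highest CKO value came from CKO_20647, and the log2 change was -5.0 without CKO_20647.

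**Figure D1:**
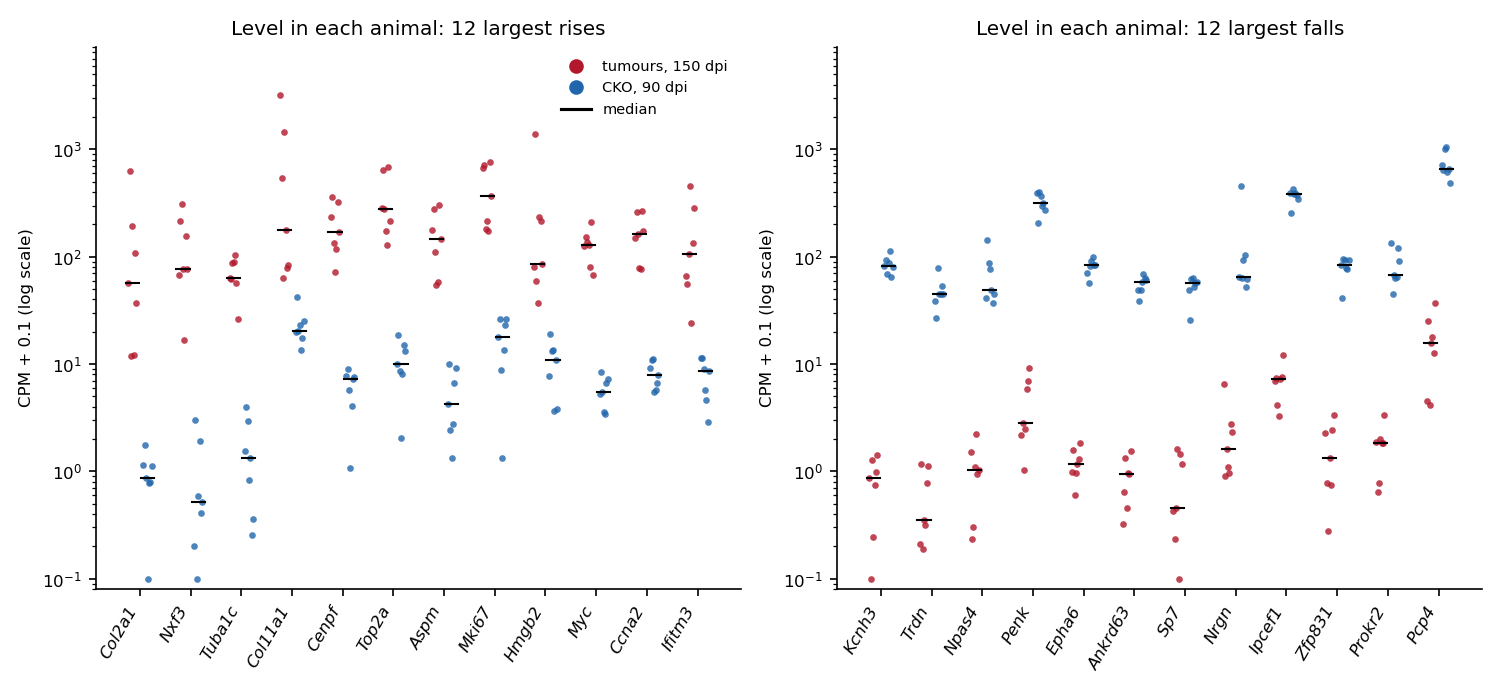
Levels of the 24 genes with the largest rises and falls, in CPM on a log axis, with 0.1 added to each value and 1 point for each of the 7 tumours and 7 CKO animals; bars mark group medians. In each of these genes the 7 tumours lie on one side of the 7 CKO animals, which the rule of choice required.

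To describe the change by function, 37 gene lists with 739 members were read, of which 712 were tested, 1 was not in the table and 26 had too few counts. Over all lists 368 members were higher in tumours, 180 were lower and 164 were not called. Without CKO_20647 it was 370 higher and 172 lower of 710, and the median of 36 of the 37 lists kept its sign. These counts are to be read against the 26.4% and 22.6% of all genes.

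**Figure D2:**
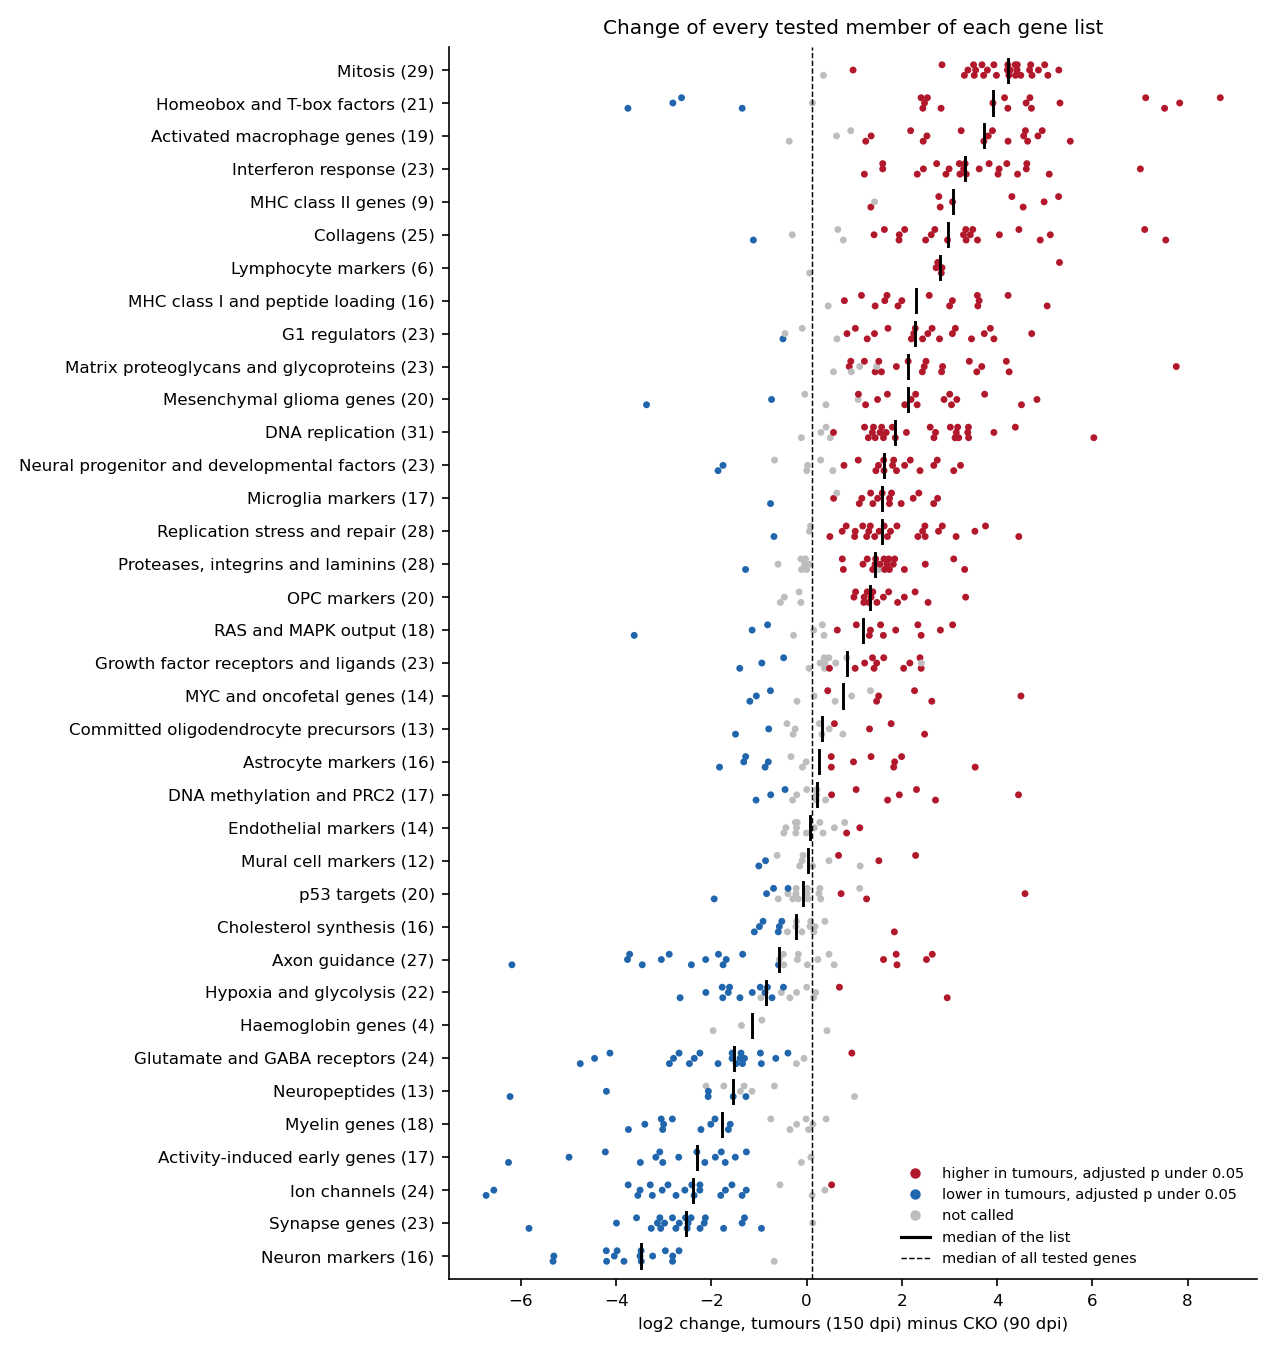
Log2 change, tumour minus CKO at 90 dpi, of every tested member of the 37 lists; each point is a gene, coloured by its call, and a bar marks the list's median. The medians run from 4.22 for mitosis to -3.49 for neuron markers.

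Cell division genes were higher in tumours as a block. Of 29 mitosis genes 28 were higher and none lower, with a median log2 change of 4.22, and in 26 of them every tumour lay above every CKO animal. Summed, they reached 834 to 3894 CPM in tumours and 60.2 to 175 CPM in CKO animals. The highest tumours were Tumor_21349 and Tumor_16839 and the lowest was Tumor_21256, and no CKO animal came near any of them. The member not called was Anln, which encodes the contractile ring protein anillin, at 18.9 to 66.7 CPM (median 37.3) in tumours and 19.4 to 49.2 CPM (median 28.7) in CKO animals.

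Many promoters of mitotic genes carry a CCAAT box, bound by the factor NF-Y, and a cell cycle homology region (CHR), through which a repressor complex keeps them silent outside G2 and mitosis. Genes of DNA replication often carry E2F sites, which the retinoblastoma family silences before S phase. In RefSeq promoters of 300 bases (GRCm38.p6, from 250 bases before to 50 after the start) CCAAT was searched on both strands, the CHR as TTTGAA, and E2F sites as TTCCCGC or TTGGCGC. Promoters of 23 of the 29 mitosis genes and of 24 of the 31 replication genes were matched. CCAAT stood in 84% of 25 mitosis promoters, in 68% of 25 replication promoters and in 37.4% of all 32851 promoters. TTTGAA stood in 72%, 12% and 17.9%. An E2F sequence stood in 56% of the replication promoters, in 20% of the mitosis promoters and in 6.81% of all. These are matches of letters, not measured binding sites. In each list the 2 genes with the largest rises whose promoter holds both sequences searched are shown: mitosis genes with CCAAT and TTTGAA of either strand in capitals, and replication genes with TTCCCGC and TTGGCGC of either strand in capitals. Cenpf lies at chr1:189688037-189688336, minus strand, Top2a at chr11:99024140-99024439, minus strand, Mcm3 at chr1:20820263-20820562, minus strand and Cdt1 at chr8:122567765-122568064, plus strand, each shown 5′ to 3′ in the direction of transcription.
Cenpf: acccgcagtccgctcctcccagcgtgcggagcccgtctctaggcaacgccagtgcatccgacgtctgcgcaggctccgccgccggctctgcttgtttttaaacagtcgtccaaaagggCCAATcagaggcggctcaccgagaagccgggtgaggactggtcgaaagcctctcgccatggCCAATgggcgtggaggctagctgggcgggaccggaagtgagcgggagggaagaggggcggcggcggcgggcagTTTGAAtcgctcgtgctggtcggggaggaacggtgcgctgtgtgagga
Top2a: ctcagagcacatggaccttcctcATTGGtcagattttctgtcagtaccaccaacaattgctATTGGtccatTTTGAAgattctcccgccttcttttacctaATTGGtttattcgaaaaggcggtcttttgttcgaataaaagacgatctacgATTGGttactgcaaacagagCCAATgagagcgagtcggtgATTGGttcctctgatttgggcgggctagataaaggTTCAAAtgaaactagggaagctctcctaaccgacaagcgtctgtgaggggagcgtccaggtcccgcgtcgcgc
Mcm3: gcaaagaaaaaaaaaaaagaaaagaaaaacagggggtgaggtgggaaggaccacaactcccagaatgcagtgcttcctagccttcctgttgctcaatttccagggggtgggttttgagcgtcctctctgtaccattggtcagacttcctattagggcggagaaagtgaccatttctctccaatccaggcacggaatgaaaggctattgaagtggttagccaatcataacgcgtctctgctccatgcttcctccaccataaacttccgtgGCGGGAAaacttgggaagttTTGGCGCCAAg
Cdt1: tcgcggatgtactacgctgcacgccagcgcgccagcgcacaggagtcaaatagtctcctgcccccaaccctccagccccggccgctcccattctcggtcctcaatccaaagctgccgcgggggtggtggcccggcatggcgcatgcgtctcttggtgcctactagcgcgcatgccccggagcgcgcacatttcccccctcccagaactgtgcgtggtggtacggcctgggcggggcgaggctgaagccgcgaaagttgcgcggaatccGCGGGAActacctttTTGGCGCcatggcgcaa
The Top2a window holds 6 CCAAT boxes and 2 CHR sequences, and that of Cenpf 2 and 1. The Mcm3 window holds 3 E2F matches, of which the last 2 overlap on opposite strands, and that of Cdt1 holds 2.

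Cenpf (ENSMUSG00000026605, chromosome 1, 189640606 to 189688086), a kinetochore protein that builds up before mitosis, was at 71.7 to 360.2 CPM (median 169) in tumours and 0.983 to 8.93 CPM (median 7.21) in CKO animals, a log2 change of 5.07 (SE 0.43, edgeR adjusted p = 2.5e-12). Top2a (ENSMUSG00000020914, chromosome 11, 98992943 to 99024189), the topoisomerase that untangles sister chromatids, was at 129 to 679 CPM (median 277) in tumours and 1.97 to 18.5 CPM (median 9.82) in CKO animals, a log2 change of 5.00 (SE 0.46, edgeR adjusted p = 3.1e-11). In both genes the lowest tumour lay far above the highest CKO animal. Mki67, which coats mitotic chromosomes and marks dividing cells, was at 174 to 756 CPM (median 365) in tumours and 1.23 to 26.1 CPM (median 17.7) in CKO animals, a log2 change of 4.73 (SE 0.54, edgeR adjusted p = 4.3e-09). The lowest CKO values of all 3 genes came from CKO_22149. Aurkb, the kinase of the chromosomal passenger complex, went from a median of 0.768 to 31.5 CPM (log2 change 5.30). Foxm1, the transcription factor that drives G2 and mitosis genes, went from 2.99 to 71.4 CPM (log2 change 4.39). Ube2c, which tags mitotic proteins for destruction, went from 2.07 to 57.1 CPM (log2 change 4.42). The groups of all 3 are separated too. Differences from the wild-type interval were larger than 0 at an adjusted p under 0.05 in 27 of the 29.

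DNA replication genes rose less evenly. Of 31 tested 27 were higher and none lower, with a median log2 change of 1.86, but the groups were separated in only 7. Mcm3, a subunit of the replicative helicase, was at 2.58 to 106 CPM (median 38.5) in tumours and 2.26 to 6.52 CPM (median 3.74) in CKO animals, a log2 change of 3.38 (SE 0.48, edgeR adjusted p = 3.2e-07). Cdt1, which loads that helicase on origins, was at 5.59 to 47.1 CPM (median 12.8) in tumours and 0.921 to 9.62 CPM (median 2.25) in CKO animals, a log2 change of 2.67 (SE 0.49, edgeR adjusted p = 2.4e-05). For both, the lowest tumour fell within the CKO range. Rrm2, the small subunit of ribonucleotide reductase, was at 1.72 to 770.1 CPM (median 37.1) in tumours and 1.13 to 3.73 CPM (median 1.79) in CKO animals, a log2 change of 6.03 (SE 0.80, edgeR adjusted p = 8.2e-08). One tumour set much of this value: the log2 change of Rrm2 was 4.29 without Tumor_16839. Cdc6, which acts with Cdt1, was fully separated, from 0.673 to 10.5 CPM (log2 change 3.93). Pcna, the sliding clamp, changed from 69.8 to 127 CPM (log2 change 1.30). The members not called were 3 GINS subunits, Gins2, Gins3 and Gins4, and the origin recognition subunit Orc6. Gins4 and Orc6 were called higher with RLE size factors, upper-quartile factors and DESeq2. With RLE size factors 29 of the 31 were higher.

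The genes that control entry into the cycle moved with it, activators and inhibitors alike. Of 23 G1 regulators 19 were higher and 1 was lower (median 2.28). Ccnd1, the cyclin D1 that links growth factor signals to the cycle, was at 335 to 2418 CPM (median 619) in tumours and 36.9 to 182 CPM (median 62.6) in CKO animals, a log2 change of 3.73 (SE 0.38, edgeR adjusted p = 2.2e-10). Cdk6, its kinase partner, went from 7.60 to 47.5 CPM (log2 change 3.12), and Ccnd3 from 16.3 to 121 CPM (log2 change 2.79). All tumours were above all CKO animals in each of these. Among inhibitors, Cdkn2c (p18) went from 2.20 to 27.6 CPM (log2 change 3.46). Cdkn2a, which encodes p16 and the p53 activator p19ARF, was at 3.01 to 18.8 CPM (median 6.32) in tumours and 0 to 1.90 CPM (median 0.0767) in CKO animals, a log2 change of 4.73 (SE 0.81, edgeR adjusted p = 1.3e-05). It was near 0 in most CKO animals, and the highest was CKO_20647. Rb1, the retinoblastoma protein gene, fell from 176 to 114 CPM (log2 change -0.50), a call that was lost with RLE size factors, while its relative Rbl1 went from 5.10 to 24.4 CPM (log2 change 2.54). The activator E2f2 went from 0.691 to 14.4 CPM (log2 change 3.93) and the repressors E2f7 and E2f8 from 1.89 to 16.4 CPM (log2 change 3.06) and 3.68 to 23.9 CPM (log2 change 2.63). The groups do not overlap in these 3 E2F genes. Cdkn2d, Rbl2 and E2f1 were not called. Leaving out 1 animal put the log2 change of Cdkn2a at 6.33 without CKO_20647.

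Checkpoint and repair genes were higher too. Of 28 genes of replication stress and repair 25 were higher and 1 lower (median 1.57), with the groups separated in 15. Clspn, the claspin that passes the stalled-fork signal to the kinase Chek1, was at 16.3 to 41.5 CPM (median 21.3) in tumours and 0.245 to 2.34 CPM (median 1.02) in CKO animals, a log2 change of 4.46 (SE 0.42, edgeR adjusted p = 5.2e-11). Chek1 went from 2.04 to 12.7 CPM (log2 change 3.53), and its log2 change was 2.66 without Tumor_16839. Exo1, a DNA end resection nuclease, went from 1.08 to 20.6 CPM (log2 change 3.76). Brca1, of homologous recombination, went from 5.44 to 27.6 CPM (log2 change 2.49). The member that fell was Atrip, the partner of the kinase Atr, from 20.6 to 12.0 CPM (log2 change -0.69), and its counts share sequence with the neighbouring Trex1. Wee1 and Fancm were not called.

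Chromatin genes changed in part. Of 17 genes of DNA methylation and Polycomb complex PRC2, 7 were higher and 3 lower (median 0.22). The higher ones include Uhrf1, which brings the methyltransferase to new DNA and rose from 1.72 to 35.3 CPM (log2 change 4.45), and the PRC2 enzyme Ezh2, which rose from 26.2 to 75.0 CPM (log2 change 1.70). Ezh1, the other PRC2 enzyme, fell from 77.5 to 36.6 CPM (log2 change -1.06), and the de novo methyltransferase Dnmt3a fell from 212 to 92.1 CPM (log2 change -0.76). Ezh1 and Ezh2 each separated the groups, in opposite directions. Tet1, Tet2 and Tet3, which oxidise methylated cytosine, were not called.

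Genes of the MYC network changed in both directions. Of 14 MYC network and oncofetal genes tested, 6 were higher and 3 lower (median 0.77). Myc (ENSMUSG00000022346, chromosome 15, 61985391 to 61990374) was at 68.1 to 213 CPM (median 129) in tumours and 3.29 to 8.38 CPM (median 5.38) in CKO animals, a log2 change of 4.50 (SE 0.28, edgeR adjusted p = 5.7e-16). Its lowest tumour was above its highest CKO animal. Mxd1 and Mxi1, which compete with MYC for its partner MAX, fell from 56.5 to 29.3 CPM (log2 change -1.19) and 105 to 63.5 CPM (log2 change -0.76). Mxd3, a further Mxd gene of the list, went the other way. Its log2 change was 2.45 to 2.81 with any 1 animal left out, and its call was lost in males alone. Mycn was not called: it was at 5.92 to 1141 CPM (median 32.1) in tumours and 31.5 to 90.1 CPM (median 61.8) in CKO animals, a log2 change of 1.34 (SE 0.70, edgeR adjusted p = 0.114). Tumor_16839 had 1141 CPM, and without it the log2 change was -0.64. Max, Mga, Lin28b and Hmga1 were not called either. Hmga2, a fetal chromatin protein, rose from 5.53 to 15.6 CPM (log2 change 2.27). Igf2bp3 of the same list fell, with a log2 change of -1.28 to -0.96 with any 1 animal left out.

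RAS pathway feedback genes rose in part. These genes are induced by ERK, the last kinase of the cascade, and many of them restrain it. Of 18 members 11 were higher and 3 lower (median 1.18), with the groups separated upward in 4 and downward in 1. Spry1, a receptor signalling inhibitor, was at 37.7 to 228 CPM (median 66.6) in tumours and 11.4 to 28.1 CPM (median 20.4) in CKO animals, a log2 change of 2.33 (SE 0.28, edgeR adjusted p = 9.2e-09). Etv4, an ERK-induced ETS factor, was at 12.3 to 67.6 CPM (median 18.1) in tumours and 3.00 to 8.76 CPM (median 4.79) in CKO animals, a log2 change of 2.40 (SE 0.34, edgeR adjusted p = 3.7e-07). Ier3, an early response gene, went from 3.33 to 20.9 CPM (log2 change 2.81), and in these 3 genes no CKO animal reached a tumour. Dusp6, the phosphatase of ERK, rose from 59.0 to 100.3 CPM (log2 change 1.34), with overlap. Dusp5, the nuclear ERK phosphatase, moved the other way: it was at 0.539 to 2.37 CPM (median 1.87) in tumours and 17.4 to 27.0 CPM (median 21.2) in CKO animals, a log2 change of -3.62 (SE 0.23, edgeR adjusted p = 1.4e-15). No tumour came near the CKO range. Spred2 also fell, from 137 to 84.9 CPM (log2 change -0.82). Emp1, an epithelial membrane protein, rose from 9.02 to 42.2 CPM (log2 change 3.07), and its log2 change was 2.38 without Tumor_16713. Dusp4, Spred1, Spred3 and Epha2 were not called.

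Growth factor receptors were mixed, with 11 of 23 receptors and ligands higher and 3 lower (median 0.84). Pdgfra, the main growth factor receptor of OPCs, was at 556 to 2629.6 CPM (median 1074) in tumours and 314 to 589.9 CPM (median 477) in CKO animals, a log2 change of 1.38 (SE 0.24, edgeR adjusted p = 8.2e-06). The lowest tumour lay within the CKO range. Erbb3, a neuregulin receptor, was at 72.2 to 384 CPM (median 125) in tumours and 15.7 to 49.6 CPM (median 33.1) in CKO animals, a log2 change of 2.38 (SE 0.30, edgeR adjusted p = 2.6e-08). Axl, the receptor of Gas6, was at 34.2 to 180.2 CPM (median 118) in tumours and 19.7 to 29.0 CPM (median 25.4) in CKO animals, a log2 change of 2.17 (SE 0.26, edgeR adjusted p = 9.7e-09). Both separated the groups. Fgfr2 did so downward, from 118 to 36.7 CPM (log2 change -1.41), while Fgfr3 rose from 23.2 to 62.2 CPM (log2 change 1.62). Egfr rose from 18.9 to 43.0 CPM (log2 change 2.04). Igf2, a fetal growth factor, rose from 12.8 to 23.4 CPM (log2 change 2.40), and its log2 change was 1.14 without Tumor_16713. Kit, Igf1r and Pdgfrb were not called.

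Met, the receptor of hepatocyte growth factor, was extreme in 1 tumour. It was at 1.29 to 2492 CPM (median 13.4) in tumours and 5.90 to 350.5 CPM (median 10.0) in CKO animals, and its log2 change of 2.41 was not called (SE 1.26, edgeR adjusted p = 0.112). The highest tumour, Tumor_21349, had 2492 CPM, and CKO_20647 had 350.5 CPM against at most 12.5 CPM in the other CKO animals. The log2 change of Met was 4.92 without CKO_20647 and -0.53 without Tumor_21349 (adjusted p = 0.674). Met was called without CKO_20647 (adjusted p = 1.3e-04), without Tumor_21256 (2.88, adjusted p = 0.0457) and without Tumor_21354 (2.91, adjusted p = 0.0482).

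Targets of p53 showed no common direction. Of 20 tested 3 were higher, 4 lower and 13 not called (median -0.08, which turned to 0.09 with RLE size factors). Cdkn1a, which encodes the cell cycle inhibitor p21, was at 12.5 to 104 CPM (median 29.3) in tumours and 131 to 233 CPM (median 174) in CKO animals, a log2 change of -1.94 (SE 0.30, edgeR adjusted p = 1.7e-06). No tumour reached the CKO range. Eda2r, a receptor of the TNF family, rose from 0.193 to 5.71 CPM (log2 change 4.59), and its log2 change was 3.99 without Tumor_16839. Mdm2, the ligase that destroys p53, was at 56.9 to 108 CPM (median 91.5) in tumours and 81.8 to 89.8 CPM (median 84.1) in CKO animals and was not called.

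Most OPC markers were higher in tumours. Of 20 OPC markers 16 were higher and none was lower (median 1.33), with the groups separated in 12. Sox10, a factor that defines the oligodendrocyte lineage, was at 81.2 to 233 CPM (median 157) in tumours and 13.5 to 54.3 CPM (median 37.8) in CKO animals, a log2 change of 2.05 (SE 0.30, edgeR adjusted p = 4.4e-07). Sox6, which holds OPCs undifferentiated, was at 462 to 916 CPM (median 628) in tumours and 81.4 to 127 CPM (median 118) in CKO animals, a log2 change of 2.55 (SE 0.19, edgeR adjusted p = 1.1e-13). In both genes the groups were fully separated. Olig2 went from 94.1 to 189 CPM (log2 change 1.27) and Cspg4 from 124 to 241 CPM (log2 change 1.03). Gpr17, Tnr, Neu4 and Cspg5 were not called. The summed level was 6216 to 14483 CPM in tumours, and the lowest of them, Tumor_21349, exceeded every CKO animal.

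Myelin genes were lower in tumours, and genes of committed precursors changed in both directions. Among the 13 committed precursor genes 4 were higher and 2 lower (median 0.32), and with RLE size factors 7 were higher and 1 lower. Bcas1, a marker of newly forming oligodendrocytes, was at 231 to 854 CPM (median 578) in tumours and 88.4 to 134 CPM (median 106) in CKO animals, a log2 change of 2.48 (SE 0.21, edgeR adjusted p = 3.1e-12). Enpp6, a marker of the same stage, fell from 52.4 to 7.21 CPM (log2 change -1.49), and its log2 change was -2.33 without Tumor_21354. Bcas1 separated the groups and Enpp6 did not. Myrf, the factor that starts myelin gene expression, was not called. Of 18 myelin genes none was higher and 11 were lower (median -1.78). Mog, a myelin surface protein, was at 0.539 to 10.0 CPM (median 2.16) in tumours and 18.0 to 39.7 CPM (median 25.3) in CKO animals, a log2 change of -2.82 (SE 0.44, edgeR adjusted p = 1.5e-06). Mal, a myelin membrane trafficking protein, was at 4.95 to 64.7 CPM (median 9.16) in tumours and 68.1 to 212 CPM (median 151) in CKO animals, a log2 change of -3.06 (SE 0.40, edgeR adjusted p = 6.5e-08). No tumour reached the CKO range in either gene. Mbp, Cnp and Cldn11 were among the members not called. The log2 change of Mal was -3.81 without Tumor_21256.

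Of 23 progenitor factors 16 were higher and 2 lower (median 1.62). In females alone 9 were higher and 4 lower (median 1.05), and the summed levels overlap, at 1189.9 to 7806 CPM in tumours and 1469 to 2138 CPM in CKO animals. Notch1, the receptor that keeps progenitors undifferentiated, was at 134 to 266 CPM (median 238) in tumours and 31.0 to 63.0 CPM (median 51.3) in CKO animals, a log2 change of 2.06 (SE 0.20, edgeR adjusted p = 7.5e-11). Its target Hes1 went from 6.39 to 20.4 CPM (log2 change 2.38), and the inhibitory factor Id3 from 12.1 to 78.2 CPM (log2 change 2.74). Nes, the intermediate filament nestin of neural stem cells, rose from 8.38 to 69.2 CPM (log2 change 3.09). Sox2 rose from 65.3 to 131 CPM (log2 change 1.62). Dcx, the doublecortin of migrating neuroblasts, fell: it was at 6.92 to 1006 CPM (median 157) in tumours and 608 to 1121 CPM (median 952) in CKO animals, a log2 change of -1.86 (SE 0.49, edgeR adjusted p = 0.00176). One tumour, Tumor_16839, had 1006 CPM of Dcx, and the log2 change was -2.79 without Tumor_16839. The same tumour had by far the highest sum of the list, 7806 CPM. The other member that fell was the homeobox gene Meis1, from 102 to 20.6 CPM (log2 change -1.76). Pax6, Dll1, Id2, Prom1 and Hey1 were not called.

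Homeobox and T-box factors changed in both directions. Of 30 such factors 21 passed the filter on low counts, and since tumour counts alone can meet it, no tally of them is read as a result. Hoxa5, of the posterior body axis, was at 0.215 to 17.5 CPM (median 10.7) in tumours and 0 to 0.0767 CPM (median 0.0499) in CKO animals, a log2 change of 7.52 (SE 0.86, edgeR adjusted p = 8.6e-09). En1, of the midbrain and hindbrain, was at 5.71 to 33.3 CPM (median 8.95) in tumours and 0 to 0.0767 CPM (median 0) in CKO animals, a log2 change of 8.69 (SE 0.78, edgeR adjusted p = 4.1e-10). In both, every tumour was above every CKO animal in CPM, and with CKO counts this low the size of the change rests on few reads. For Hoxa5 the separation itself rests on 1 read. Tumor_21256, of low total count, had a count of 1, and CKO_22212 had a count of 2. Irx2 and Irx5 went from 0.481 to 15.6 CPM (log2 change 4.69) and 0.0321 to 6.50 CPM (log2 change 4.72), and Tbx15 from 0.367 to 4.06 CPM (log2 change 3.91). The lower ones include forebrain factors of the Dlx family. Dlx1, of the ventral forebrain and its interneurons, was at 0.110 to 67.3 CPM (median 12.1) in tumours and 211 to 343 CPM (median 278) in CKO animals, a log2 change of -3.75 (SE 0.44, edgeR adjusted p = 5.6e-09). Dlx2 and Dlx5 fell from 54.5 to 4.84 CPM (log2 change -2.81) and 58.6 to 11.3 CPM (log2 change -2.63), and all 3 separated the groups. Tbx3 was not called.

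Astrocyte markers moved both ways, with 8 of 16 higher and 5 lower (median 0.25). Sox9, a glial factor, rose from 24.6 to 115 CPM (log2 change 1.83), and S100b from 75.9 to 203 CPM (log2 change 1.35). Gfap, the astrocyte filament protein, was at 80.4 to 339 CPM (median 168) in tumours and 38.7 to 93.2 CPM (median 42.1) in CKO animals, a log2 change of 1.85 (SE 0.26, edgeR adjusted p = 2.6e-07). The glutamate transporter Slc1a2 fell from 1879 to 967 CPM (log2 change -1.32), while Slc1a3, Glul and Aldh1l1 were not called. Summed, the markers were at 2338 to 5935 CPM in tumours and 3788 to 8624 CPM in CKO animals, with the highest from CKO_20647, and the ranges overlap.

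Neuron genes were lower in tumours. Of 16 neuron markers tested none was higher and 15 were lower (median -3.49), with every tumour below every CKO animal in 12. Snap25, a synaptic vesicle fusion protein, was at 106 to 559 CPM (median 180.4) in tumours and 3208 to 7586 CPM (median 3769.7) in CKO animals, a log2 change of -4.20 (SE 0.25, edgeR adjusted p = 2.9e-16). Rbfox3, which encodes the neuronal antigen NeuN, was at 0.994 to 9.03 CPM (median 3.91) in tumours and 142 to 223 CPM (median 191) in CKO animals, a log2 change of -5.31 (SE 0.27, edgeR adjusted p = 5.5e-18). Gad1, which makes GABA, was at 3.18 to 248 CPM (median 78.2) in tumours and 1063 to 1790.0 CPM (median 1261) in CKO animals, a log2 change of -3.84 (SE 0.41, edgeR adjusted p = 6.5e-10). The groups lie far apart in each. In wild-type animals at 150 dpi Snap25 was at 3690.1 to 5808 CPM (median 4557) and Gad1 at 1006 to 1994 CPM (median 1423). The member not called was Slc17a6, a glutamate vesicle transporter. Slc17a7 fell, although its ranges overlap, from 63.7 to 15.4 CPM (log2 change -2.68).

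Synapse genes followed, with none of 23 higher, 22 lower (median -2.54) and 19 with separated groups. Syn1, which tethers synaptic vesicles, fell from 518 to 42.4 CPM (log2 change -3.57), and Shank1 of the postsynaptic scaffold from 353 to 51.1 CPM (log2 change -2.49). Nrxn3, a presynaptic adhesion protein, was at 12.3 to 129 CPM (median 52.2) in tumours and 770.1 to 979 CPM (median 897) in CKO animals, a log2 change of -3.99 (SE 0.24, edgeR adjusted p = 5.1e-16). Nlgn3, a postsynaptic neuroligin that OPCs also make, was the exception. It was at 290.3 to 504 CPM (median 345) in tumours and 261 to 397 CPM (median 321) in CKO animals, a log2 change of 0.13 (SE 0.11, edgeR adjusted p = 0.340).

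Most transmitter receptors and channels were lower in tumours. Of 24 glutamate and GABA receptor genes 1 was higher and 21 were lower (median -1.52). Grin2b, an NMDA receptor subunit, was at 36.6 to 129.9 CPM (median 66.7) in tumours and 1667 to 2120.4 CPM (median 1917) in CKO animals, a log2 change of -4.76 (SE 0.17, edgeR adjusted p = 7.1e-22). Gria2, the AMPA receptor subunit that limits calcium entry, fell from 1926 to 665 CPM (log2 change -1.38), and Gria4 from 265 to 218 CPM (log2 change -0.39). Grik3, a kainate receptor subunit, rose from 139 to 291 CPM (log2 change 0.95). Grin2b and Gria2 separated the groups and Grik3 did not. Of 24 ion channel genes 20 were lower and 1 was higher (median -2.39), and 20 separated the groups downward. Cacna1e, a calcium channel, fell from 636 to 61.7 CPM (log2 change -3.50), and Ryr2, the calcium release channel that binds triadin, from 447 to 29.8 CPM (log2 change -3.75). The member that rose was Kcnj10, the inward rectifier of glia, from 283 to 406 CPM (log2 change 0.52). Kcna1, Kcna2 and Kcnj16 were not called, nor were the receptor genes Grik1 and Gabrg1.

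Genes that neurons and glia induce within minutes of stimulation were lower. Of 17 early genes none was higher and 15 were lower (median -2.31). Arc, which regulates AMPA receptors at synapses, was at 0.808 to 19.1 CPM (median 5.16) in tumours and 114 to 452 CPM (median 231) in CKO animals, a log2 change of -4.99 (SE 0.47, edgeR adjusted p = 4.2e-11). Egr1 was at 62.1 to 213 CPM (median 139) in tumours and 456 to 2154 CPM (median 1072) in CKO animals, a log2 change of -3.02 (SE 0.35, edgeR adjusted p = 3.7e-09). Npas4 was at 0.135 to 2.15 CPM (median 0.931) in tumours and 37.0 to 143 CPM (median 48.5) in CKO animals, a log2 change of -6.26 (SE 0.63, edgeR adjusted p = 2.1e-10). All 3 separated the groups. Fos fell less, from 59.9 to 27.6 CPM (log2 change -1.27), with overlap. Egr3 fell from 466 to 9.03 CPM (log2 change -4.23), and its log2 change was -5.71 without Tumor_16713. Ier2 and Dusp1 were not called. Tumor_16713 had the highest sum of these genes among tumours, 953 CPM, and CKO_20642 the lowest among CKO animals, 1179.8 CPM. Of 13 neuropeptide genes none was higher and 6 were lower (median -1.54). Penk was at 0.936 to 9.12 CPM (median 2.69) in tumours and 207 to 402 CPM (median 316) in CKO animals, a log2 change of -6.23 (SE 0.35, edgeR adjusted p = 4.0e-17). Cartpt, another peptide precursor, fell from 18.8 to 0.495 CPM (log2 change -4.21). Sst and Vip were not called.

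**Figure D3:**
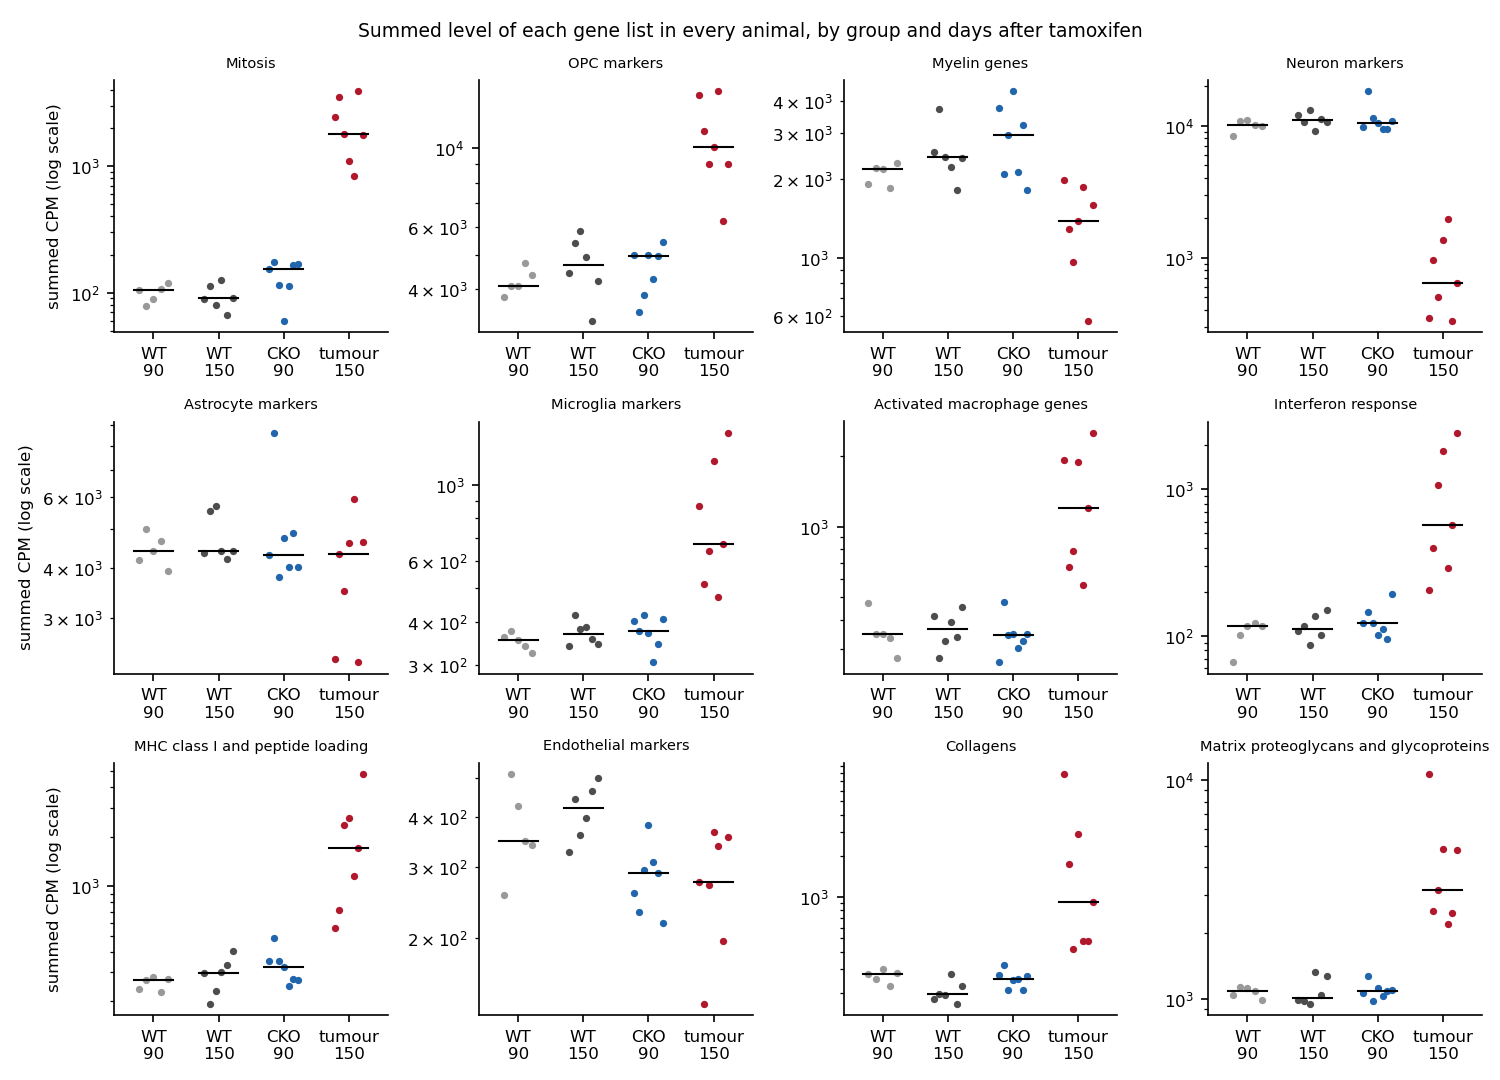
Summed CPM of 12 lists on a log axis, with 1 point for each tumour, CKO and wild-type animal and bars at the medians. Mitosis and neuron lists separate tumours from CKO animals in opposite directions, while endothelial markers overlap.

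Guidance genes changed in both directions: 5 of 27 were higher and 13 lower (median -0.57). Of the Eph receptors, Epha3, Epha4, Epha5, Epha6 and Epha7 fell, and all 5 separated the groups. Epha5 was at 20.6 to 88.2 CPM (median 34.9) in tumours and 331 to 581 CPM (median 372) in CKO animals, a log2 change of -3.45 (SE 0.26, edgeR adjusted p = 2.0e-13). Ephb2 rose, at 17.4 to 38.7 CPM (median 30.4) in tumours and 2.95 to 6.62 CPM (median 4.99) in CKO animals, a log2 change of 2.64 (SE 0.26, edgeR adjusted p = 1.8e-10). Both separated the groups. Slit3, a repulsive ligand, fell from 21.8 to 0.790 CPM (log2 change -3.72), and its receptor Robo2 from 216 to 35.7 CPM (log2 change -2.42). Ntn1, the attractant netrin, rose from 22.1 to 69.0 CPM (log2 change 1.90) and its receptor Unc5c from 67.3 to 223 CPM (log2 change 1.61), while Dcc was not called.

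Immune genes were higher in tumours. Of 17 microglia markers 15 were higher and 1 lower (median 1.59), and the summed level was 471 to 1420.4 CPM in tumours and 305 to 419 CPM in CKO animals. All 17 had counts in every animal of both groups. C1qb, a complement subunit made by microglia, was at 35.4 to 172 CPM (median 75.9) in tumours and 7.94 to 18.7 CPM (median 14.8) in CKO animals, a log2 change of 2.67 (SE 0.29, edgeR adjusted p = 1.3e-09). P2ry12, the receptor that marks resting microglia, rose from 22.7 to 34.6 CPM (log2 change 0.57), with overlap. The member that fell was Sall1, a transcription factor of microglia and some progenitors, from 149.6 to 78.1 CPM (log2 change -0.76), and Siglech was not called. Of 20 genes of activated macrophages 19 passed the filter on low counts, which tumour counts alone can meet. Only 10 had counts in every CKO animal. Of the 19, 16 were higher and none lower (median 3.72), a tally that the filter can favour. The list summed to 566 to 2518 CPM in tumours and 264 to 477 CPM in CKO animals. Cd68, a lysosomal protein of phagocytes, was at 9.68 to 47.2 CPM (median 45.6) in tumours and 3.92 to 8.11 CPM (median 6.18) in CKO animals, a log2 change of 2.53 (SE 0.39, edgeR adjusted p = 1.5e-06). Lgals3, the galectin of activated phagocytes, was at 1.48 to 16.7 CPM (median 8.55) in tumours and 0 to 1.28 CPM (median 0.193) in CKO animals, a log2 change of 4.64 (SE 0.84, edgeR adjusted p = 3.1e-05). Both separated the groups. Gpnmb, a glycoprotein of phagocytes, rose from 9.47 to 35.3 CPM (log2 change 4.86), and its log2 change was 4.25 without Tumor_16713 and 3.92 without Tumor_16844. Spp1, Cd163 and Arg1 were not called. Captured sections can hold microglia beside the labelled cells, and the part of these cells in the tumour differences was not tested.

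Lymphocyte markers were sparse. Of 14 only 6 passed the filter on low counts, which tumour counts alone can meet, so no tally of calls is given. The 14 markers summed to 31.9 to 107 CPM in tumours and 4.68 to 10.5 CPM in CKO animals. The largest part of that sum in tumours is Ptprc, the leukocyte antigen CD45, at 20.3 to 70.4 CPM (median 27.1) in tumours and 3.15 to 9.60 CPM (median 5.00) in CKO animals, a log2 change of 2.84 (SE 0.52, edgeR adjusted p = 2.0e-05). Trac, of the T cell receptor, went from 0.0490 to 0.954 CPM (log2 change 2.83). Cd2, Nkg7 and Gzmb had no count in any CKO animal. Tumor_21256 had none of them either, and Tumor_16839 and Tumor_16844 had none of Cd2 and Gzmb. Tumor_21354 had the highest count of each, at 111, 119 and 68. Ms4a1 was tested and not called.

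Antigen presentation and interferon genes were higher in tumours. Of 16 genes of MHC class I and peptide loading 15 were higher and none lower (median 2.29). B2m, the shared light chain, was at 260.5 to 1807 CPM (median 727) in tumours and 70.5 to 201 CPM (median 122) in CKO animals, a log2 change of 2.57 (SE 0.32, edgeR adjusted p = 1.8e-08). H2-K1, a classical heavy chain, was at 67.0 to 1073 CPM (median 331) in tumours and 28.3 to 43.8 CPM (median 32.6) in CKO animals, a log2 change of 3.58 (SE 0.39, edgeR adjusted p = 1.7e-09). Both separated the groups. Nlrc5, the activator of class I genes, went from 0.768 to 21.6 CPM (log2 change 5.05). Of 9 class II genes 8 were higher (median 3.06). Only 6 had counts in every CKO animal, and tumour counts alone can meet the filter, so it can favour this tally. H2-Ab1, a class II beta chain, was at 0.269 to 156 CPM (median 12.3) in tumours and 0 to 2.05 CPM (median 0.614) in CKO animals, a log2 change of 5.29 (SE 0.92, edgeR adjusted p = 9.9e-06). Ciita, the activator of class II genes, was not called, nor was Psmb10. Leaving out 1 animal put the log2 changes of H2-Ab1 at 3.85 without Tumor_21354 and Nlrc5 at 4.38 without Tumor_21354.

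All 23 interferon response genes tested were higher (median 3.33), with the groups separated in 9. Of the 24 members 19 had counts in every CKO animal, and tumour counts alone can meet the filter. Cxcl10, the T cell attractant, was at 2.58 to 144 CPM (median 33.5) in tumours and 0 to 0.798 CPM (median 0.153) in CKO animals, a log2 change of 7.01 (SE 0.96, edgeR adjusted p = 1.6e-07). Bst2, the tetherin that holds viruses at the membrane, was at 4.52 to 39.7 CPM (median 18.2) in tumours and 0 to 1.60 CPM (median 0.917) in CKO animals, a log2 change of 4.61 (SE 0.56, edgeR adjusted p = 1.4e-08). Neither overlaps between groups. The list summed to 2426 CPM in Tumor_21354 and 1827 CPM in Tumor_16844, and to 204 CPM in Tumor_16713, against 194 CPM in the highest CKO animal. The log2 change of Cxcl10 was 6.28 without Tumor_21354. Microglia sums were also highest in Tumor_21354 and Tumor_16844, at 1420.4 and 1175 CPM, but the 2 sums did not follow each other in all tumours. Tumor_16713, the lowest for interferon genes, had 872 CPM of microglia markers. Tumor_16840 had 644 CPM of microglia markers and 1071 CPM of interferon genes. The part of microglia in the interferon genes was not tested.

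Few vessel markers were called. Of 14 endothelial markers 2 were higher and none lower (median 0.08), and they summed to 137 to 367 CPM in tumours and 218 to 381 CPM in CKO animals. Pecam1, the endothelial adhesion protein, was at 18.2 to 47.3 CPM (median 23.8) in tumours and 15.5 to 32.5 CPM (median 22.7) in CKO animals and was not called. Both calls, of Tie1 and Kdr, were lost without single animals, Tie1 when any 1 of 7 was left out and Kdr without Tumor_16713 (adjusted p = 0.0553). Of 12 mural markers 3 were higher and 2 lower. The 3 higher calls, of Acta2, Anpep and Notch3, were each lost without several single animals, and none was made in the compared groups alone. Rgs5, a pericyte marker, was at 72.8 to 140.2 CPM (median 113) in tumours and 154 to 279 CPM (median 194) in CKO animals, a log2 change of -0.86 (SE 0.19, edgeR adjusted p = 3.3e-04), with every tumour below every CKO animal. None of 4 haemoglobin genes tested was called, and they summed to 1.62 to 17.0 CPM in tumours and 1.02 to 76.6 CPM in CKO animals.

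Collagens and matrix genes were higher, with large differences between tumours. Of 25 collagens 21 were higher and 1 was lower (median 2.96), but the groups separated in only 6, and in males alone 10 were called higher. Summed, collagens were at 418 to 7859 CPM in tumours, with the highest in Tumor_16713, and 211 to 322 CPM in CKO animals. Col2a1 (ENSMUSG00000022483, chromosome 15, 97975602 to 98004695) was at 11.7 to 625 CPM (median 57.3) in tumours and 0 to 1.65 CPM (median 0.768) in CKO animals, a log2 change of 7.10 (SE 0.82, edgeR adjusted p = 4.6e-09). Col11a1 was at 63.8 to 3232 CPM (median 176) in tumours and 13.3 to 41.9 CPM (median 20.2) in CKO animals, a log2 change of 5.12 (SE 0.64, edgeR adjusted p = 2.5e-08). Col9a1, another cartilage collagen, was at 4.68 to 282 CPM (median 23.0) in tumours and 0.147 to 1.04 CPM (median 0.307) in CKO animals, a log2 change of 7.54 (SE 0.86, edgeR adjusted p = 3.6e-09). These 3 separated the groups, which the rule of the 12 largest rises required of Col2a1 and Col11a1. Col1a1, the collagen of fibroblasts and bone, was at 0.860 to 151 CPM (median 3.33) in tumours and 1.97 to 5.33 CPM (median 4.35) in CKO animals. Its median was lower in tumours although it was called higher (log2 change 2.96, edgeR adjusted p = 0.00117), and Tumor_16713 and Tumor_21354 had 151 and 54.8 CPM. The member that fell was Col23a1, from 20.5 to 7.40 CPM (log2 change -1.12). Col6a1, Col12a1 and Col25a1 were not called. Col12a1 was called without CKO_20647, where its log2 change went from 0.65 to 1.99 (adjusted p = 6.9e-04), and Col6a1 went from 0.77 to -0.43 without Tumor_16713 (adjusted p = 0.561). Leaving out 1 animal put the log2 changes of Col2a1 at 6.23 without Tumor_16839, Col11a1 at 3.91 without Tumor_16713 and Col9a1 at 6.63 without Tumor_16713.

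Of 23 other matrix genes 19 were higher and none lower (median 2.13), and 9 were called higher in males alone. Tnc, the tenascin C of developing and wounded tissue, was at 10.3 to 718 CPM (median 66.3) in tumours and 5.38 to 105 CPM (median 7.28) in CKO animals, a log2 change of 2.85 (SE 0.69, edgeR adjusted p = 7.5e-04). Ncan, the brain proteoglycan neurocan, was at 864 to 2009 CPM (median 1185) in tumours and 417 to 517 CPM (median 454) in CKO animals, a log2 change of 1.57 (SE 0.15, edgeR adjusted p = 1.3e-10). Sparc, a matrix-binding protein, went from 266 to 866 CPM (log2 change 2.13). Ncan and Sparc separated the groups and Tnc did not. Single tumours set the values of others: Fmod, a small proteoglycan, was at 0.671 to 1474 CPM (median 22.1) in tumours, and Postn, periostin, at 3.23 to 285 CPM (median 24.2). Their log2 changes were 7.76 and 4.25, and leaving out 1 animal put Fmod at 8.54 without CKO_20642, at 4.44 without Tumor_16713, Postn at 2.98 without Tumor_16844 and Nid2 at 2.96 without Tumor_16713. The last is a basement membrane nidogen with a log2 change of 4.19 in all animals. Hapln1, Ogn, Thbs2 and Tgfbi were not called. Without CKO_20647 the log2 change of Tgfbi went from 0.56 to 1.77 (adjusted p = 0.00409), of Thbs2 from 0.94 to 1.69 (adjusted p = 0.00163) and of Hapln1 from 1.11 to 1.49 (adjusted p = 0.0267), and all 3 were then called.

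Of 28 proteases, integrins and laminins 19 were higher and 1 was lower (median 1.44). Mmp16, a membrane-bound metalloproteinase, went from 80.2 to 218 CPM (log2 change 1.74), and the plasminogen activator Plat from 37.2 to 130.0 CPM (log2 change 1.64). Itgb1, the common integrin beta chain, was at 198 to 591 CPM (median 284) in tumours and 72.9 to 164 CPM (median 87.2) in CKO animals, a log2 change of 1.85 (SE 0.20, edgeR adjusted p = 8.4e-10). Lama4, a laminin chain of vessel walls, was at 24.7 to 129.9 CPM (median 92.9) in tumours and 9.47 to 20.3 CPM (median 13.9) in CKO animals, a log2 change of 2.49 (SE 0.33, edgeR adjusted p = 7.1e-08). In all 4 genes every tumour lay above every CKO animal. Itgav and Itgb8, which activate TGF-beta, were not called. Adamts5, which cleaves proteoglycans, fell from 47.3 to 19.0 CPM (log2 change -1.28).

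Genes of the mesenchymal glioma state were mostly higher, 15 of 20 against 2 lower (median 2.13). Vim, the filament protein vimentin, was at 88.6 to 884 CPM (median 412) in tumours and 17.9 to 86.8 CPM (median 20.8) in CKO animals, a log2 change of 3.74 (SE 0.39, edgeR adjusted p = 5.6e-10). Cd44, the hyaluronan receptor, was at 29.5 to 215 CPM (median 42.1) in tumours and 0.246 to 9.97 CPM (median 0.802) in CKO animals, a log2 change of 4.84 (SE 0.79, edgeR adjusted p = 4.0e-06). Tagln2, an actin-binding protein, went from 22.8 to 168 CPM (log2 change 2.89). All 3 separated the groups, and CKO_20647 held the highest CKO level of Cd44, 9.97 CPM. Fosl2, an AP-1 subunit, went against the list: it was at 29.1 to 64.5 CPM (median 34.2) in tumours and 159 to 629.9 CPM (median 427) in CKO animals, a log2 change of -3.36 (SE 0.44, edgeR adjusted p = 5.6e-08). Chil1, S100a10 and Cebpb were not called. Leaving out 1 animal put the log2 changes of Vim at 4.37 without CKO_20647 and Cd44 at 6.11 without CKO_20647.

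Hypoxia and glycolysis genes were lower more often than higher, 13 against 2 of 22 (median -0.85). Slc2a3, the neuronal glucose transporter, was at 47.3 to 81.5 CPM (median 58.0) in tumours and 166 to 231 CPM (median 173) in CKO animals, a log2 change of -1.62 (SE 0.12, edgeR adjusted p = 2.9e-13). Aldoa, an aldolase, was at 119 to 251 CPM (median 173) in tumours and 674 to 1072 CPM (median 763) in CKO animals, a log2 change of -2.12 (SE 0.16, edgeR adjusted p = 3.3e-13). Hk2, the hexokinase of dividing cells, rose, at 2.56 to 16.2 CPM (median 10.0) in tumours and 0.306 to 2.94 CPM (median 0.981) in CKO animals, a log2 change of 2.95 (SE 0.56, edgeR adjusted p = 3.4e-05). The 2 falls separated the groups and the rise did not. Vegfa, the hypoxia-induced vessel growth factor, Slc2a1 and Hif1a were not called. Neuron markers fell in the same animals, and their part in these falls was not tested. Of 16 cholesterol synthesis genes 6 were lower and 1 was higher. The member that rose was Dhcr7, which makes cholesterol in the last step, from 28.3 to 49.6 CPM (log2 change 1.84), and its log2 change was 0.55 without Tumor_21354 (adjusted p = 0.0511).

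By mean CPM the 6 largest gains among called genes were Lars2, Vcan, Ptprz1, Cntn1, Slc38a6 and Fabp7. Vcan and Ptprz1, a chondroitin sulfate proteoglycan and a receptor phosphatase of OPCs, were at 717 to 5915 CPM (median 1787) and 1919.7 to 4088 CPM (median 2383) in tumours. In CKO animals they were at 396 to 622 CPM (median 527) and 768 to 1311 CPM (median 1090.0). Fabp7, the fatty acid binding protein of radial glia, was at 151 to 3037 CPM (median 1736) in tumours and 137 to 258 CPM (median 195) in CKO animals, a log2 change of 3.09 (SE 0.41, edgeR adjusted p = 9.4e-08). Vcan and Ptprz1 separated the groups, and Fabp7 did not. Lars2, the mitochondrial leucyl-tRNA synthetase, was at 6433 to 12947 CPM (median 8489.5) in tumours and 1982 to 8522 CPM (median 4464) in CKO animals, a log2 change of 0.76 (SE 0.24, edgeR adjusted p = 0.00772). The 6 largest losses included Snap25, Ndrg4, Atp1b1 and Grin2b. Atp1b1, a sodium pump subunit, was at 93.7 to 669 CPM (median 247) in tumours and 2197 to 3086 CPM (median 2429) in CKO animals, a log2 change of -3.11 (SE 0.25, edgeR adjusted p = 5.2e-13). Every tumour lay below the CKO range.

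Few genes were called in wild-type OPCs over the same interval. Between 90 and 150 dpi 3 of 16349 genes were called (0.0183%), 1350 had an unadjusted p under 0.05, and DESeq2 called 20. The 3 were Gm4735, Eno1b and Eno1, copies of the enolase gene of near-identical sequence whose reads the counting could split. Eno1b had no count in any of the 5 wild-type animals at 90 dpi and 31.7 to 125 CPM (median 76.5) at 150 dpi. Eno1 fell, from 284 to 406 CPM (median 384) to 91.8 to 214 CPM (median 188). In all 37 lists Eno1 was the only member called in wild type.

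The tumour change differed from the wild-type change in 4904 genes (30.0%), with 2314 more positive and 2590 more negative. With RLE size factors 57.3% of these differences were positive, against 47.2% with TMM factors. Col2a1 had a difference of 7.48 (SE 1.46, adjusted p = 1.2e-04), Nxf3 and Tuba1c of 7.16 and 7.25, and Trdn of -7.17 (SE 0.57, adjusted p = 2.6e-12). By list, the difference was positive in 27 of 29 mitosis genes, 21 of 23 interferon genes and 15 of 20 OPC markers. It was negative in 14 of 16 neuron markers, 21 of 23 synapse genes and 10 of 18 myelin genes. None of the 14 endothelial markers was called in this contrast, at a median difference of -0.12. Only 6 lymphocyte and 4 haemoglobin genes of low counts were tested. None was called, at median differences of 1.83 and -3.82, so the lack of a call does not show that they were alike.

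**Figure D4:**
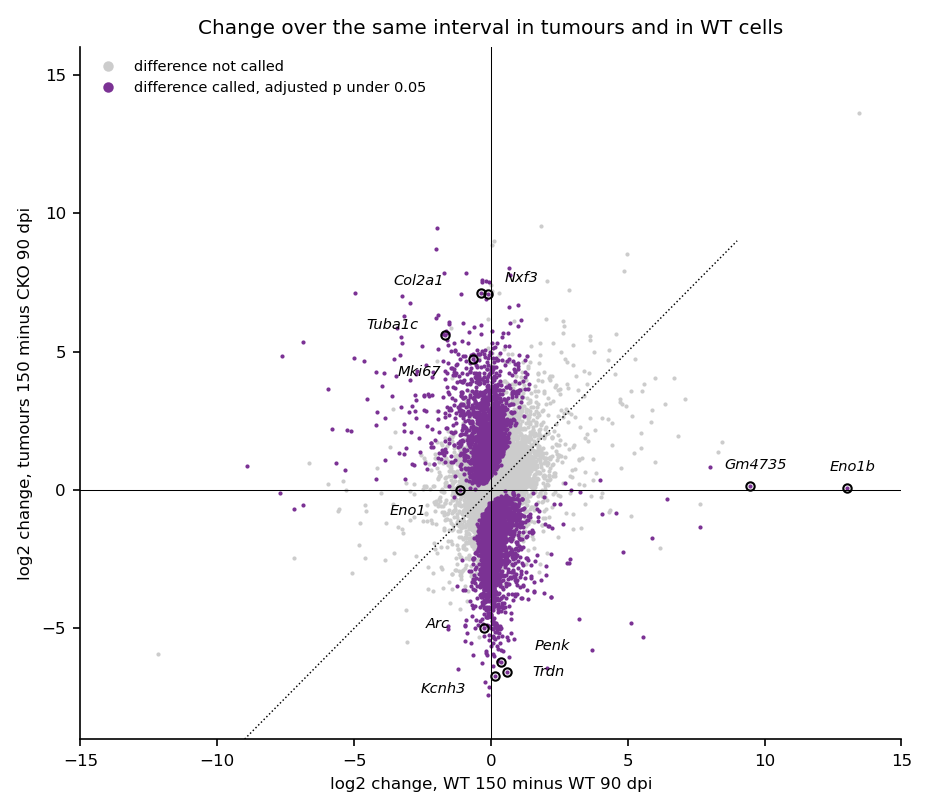
Log2 change of each tested gene in mutant animals (tumour at 150 dpi minus CKO at 90 dpi) against its change in wild-type animals over the same interval; coloured genes are those whose changes differed. The 2 changes share no animals, and the copies of enolase lie apart on the wild-type axis.

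Few genes changed differently in females and males. The tumour change differed by sex in 129 of 17787 genes (0.725%), in groups of 3 or 4 animals, while a model of tumour and CKO animals by themselves called 0 genes, with 1231 at an unadjusted p under 0.05 (edgeR) and 277 called by DESeq2 over all animals. The 4 genes with the smallest p in this test were Met, Ptpru, Tcerg1l and Fstl5. Ptpru, a receptor phosphatase, was at 2.20 to 3.07 CPM in the 3 female tumours and 10.9 to 15.1 CPM in the 4 male tumours, against 6.39 to 13.9 and 6.97 to 9.90 CPM in CKO females and males. Its change was -2.07 in females and 0.61 in males on the log2 scale, a difference of -2.68 (SE 0.38, adjusted p = 6.2e-04). For Fstl5, a secreted follistatin-like protein, female tumours had 8.91 to 14.0 CPM and male tumours 39.3 to 137 CPM, with CKO females at 51.6 to 113 and males at 36.3 to 86.3 CPM. The difference of its changes was -3.03 (SE 0.46, adjusted p = 0.00106). Tumours of the sexes do not overlap in either gene, and CKO animals do. Both genes were chosen by their small p in this test, so this is no added support. Met had a difference of 10.63, with Tumor_21349 at 2492 CPM and CKO_20647 at 350.5 CPM, the animals already seen to stand apart in this gene.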

How the data were processed

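RNA of laser-captured cells was amplified linearly with T7 RNA polymerase and sequenced after the cDNA was sheared, per the labels' protocols. The authors deposited expected counts for each gene, and the submitters' processing notes name RSEM, Bowtie2 and GRCm38; their versions are not given in the sources used here. From these, 34623 genes were kept and 92 spike-ins left out. Expected counts were rounded and the libraries of 1 animal summed.

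Genes were filtered with filterByExpr (minimum count 10, minimum total 15) and fitted with edgeR 4.0.16 (R 4.3.3) over 37 bulk animals, with TMM factors, sex as a covariate and the quasi-likelihood F test. The common biological coefficient of variation was 0.418. On simulated data for the tumour comparison, 78 of 100 genes changed by a log2 of 2 and 43 of 100 changed by 1 were recovered. DESeq2 1.42.0 was an alternative. A log2 CPM uses a prior count of 2. A near-identical copy is a gene whose transcript minimap2 2.31 aligned at 95% identity or more along 50% or more of the shorter transcript. Named genes were Nf1 and Trp53, the 12 largest separated rises and falls, the 6 largest gains and losses of mean CPM, the 3 largest called changes per list and direction, 3 per direction for the wild-type interval and the difference, and 4 for sex; other list members were chosen for description after their values were seen. Some genes that these rules name are not reported here. Promoters come from RefSeq (GRCm38.p6), and coordinates from GENCODE M21 on GRCm38. The members and lists were chosen with earlier results of these data known. Alternatives were other size factors, filters, covariates, libraries and single animals left out.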

Additional observations from a re-analysis of the deposited data

Results flagged for a closer look

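Of 110 sets of 7 values examined, 14 held an animal far from the other 6, where about 1 in 20 is given by chance. CKO_20647 accounted for most. It was the highest CKO animal for the neuronal genes Snap25 (7586 CPM) and Nrgn (457 CPM), the receptor Met (350.5 CPM), summed astrocyte markers (8624 CPM) and summed neuron markers (18150 CPM). It was the lowest for the transcription factors Sp7 (25.4 CPM) and Zfp831 (41.5 CPM) and for Ipcef1 (256 CPM).

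CKO_22149 was the lowest CKO animal for the collagen Col2a1 (0 CPM) and for the division genes Cenpf (0.983 CPM), Top2a (1.97 CPM) and Mki67 (1.23 CPM). CKO_22146 had the highest Atp1b1 (3086 CPM) among CKO animals. Among tumours, Tumor_21256 had no count of the enolase copy Gm4735 (0 CPM) against 11.2 to 56.2 CPM in the other 6.

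By the fitted interaction, the tumour change was larger than the wild-type change in Col2a1 (7.48 on the log2 scale), Tuba1c (7.25) and Nxf3 (7.16), and more negative in Trdn (-7.17). The values of the enolase copies Eno1b (-12.93) and Gm4735 (-9.30) come from their wild-type change, since in mutant animals their log2 changes were 0.07 and 0.15 and not called. The fitted size for Eno1b is not a measured one, as all 5 wild-type animals at 90 dpi were at 0. By sex, the change in females minus that in males was 10.63 for Met, -2.68 for Ptpru, -4.06 for Tcerg1l and -3.03 for Fstl5, in groups of 3 or 4 animals.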

How the results depend on the processing

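The tumour comparison gave between 5702 calls (males alone) and 8881 (DESeq2), and 7685 to 8174 without any 1 animal. The share of calls that were higher in tumours was 53.8% with TMM factors, 63.5% with RLE size factors, 61.4% with upper-quartile factors and 64.3% with DESeq2, and the share of positive differences from the wild-type change was 47.2%, 57.3%, 56.7% and 58.9%. Wild-type animals gave 3 calls, and 5 without the sex covariate, 20 with DESeq2, 6 when compared alone and 1 to 4 without any 1 animal. The sex difference gave 129 calls, and 230 with the deepest library per animal, 277 with DESeq2, 0 in the compared groups alone and 39 to 293 without any 1 animal. The difference from the wild-type change gave 4349 to 5378 calls without any 1 animal. Directions reversed for Met (-4.03), Tmem163 (0.0235), Acta2 (-0.19) and Ldha (-0.13) in males alone, Id2 (-1.01) in females alone, Npy (0.26) with the deepest library per animal, and the homeobox list's median (-2.61) among genes with a mean of at least 10 CPM; the cause was not tested. Of 174 called genes that were recomputed, 40 lost their call or direction under at least 1 setting. Calls were gained too: among recomputed genes not called, 10 were called in the same direction with RLE size factors and 13 with DESeq2. Dll1, E2f1, Gins4, Hapln1, Hey1, Kcnj16, Nlgn3, Ogn, Orc6 and Thbs2 gained a call with both, so "not called" holds for TMM factors. Among those named above, the calls of Trp53, Rb1, Col23a1, Kcnj10 and Trac were lost in males alone and among animals with suffixed libraries, Dcx, Igf2, Sall1 and Enpp6 in males alone, and Atrip, Dnmt3a, Spred2, Trac, Enpp6, Dhcr7 and Lars2 in females alone. Enpp6, Dhcr7 and Lars2 were also lost in the compared groups alone, and Rb1 with RLE size factors. Settings with 1 sex are contrasts within a fit of all 37 bulk animals by group and sex, so each compares fewer animals. In males alone the calls fell from 19 to 12 of 28 proteases, integrins and laminins and from 15 to 9 of 20 mesenchymal genes, and in females alone from 8 to 4 of 16 astrocyte markers. Of 37 list medians 31 kept their sign under every setting. No paired analysis was possible because the animal numbers are not shared between the groups compared. Depth limits genes of few counts, such as lymphocyte markers and homeobox genes in CKO animals, and intervals of counting error are not given since the fitted spread includes it.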

Other observations

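Median levels over whole chromosomes differed between tumours and CKO animals across 7671 expressed autosomal genes, a summary chosen after the data were seen. For each animal and autosome the median log2 level of its genes was taken relative to the mean of 15 wild-type animals of all times, after centring each animal on its median gene. WT_21167, of low total count, was not among these 15. Every tumour lay below every CKO animal on chromosomes 12, 18 and 19, with tumour medians of -0.34, -0.58 and -0.37. Every tumour lay above every CKO animal on chromosomes 3 and 5, with medians of 0.27 and 0.16. On these 5 chromosomes the exact permutation test over 3432 assignments of 7 and 7 animals gave p = 5.8e-04, the smallest it can give. After Benjamini-Hochberg adjustment over 19 autosomes this was 0.00221. Full separation of 7 and 7 animals always gives this p, so it restates the separation and adds no support to it. Chromosomes 9 (median -0.46, adjusted p = 0.0111, exact permutation test), 4 (0.22, 0.0127) and 6 (0.15, 0.0457) differed with overlap. Which chromosomes overlap depends on the reference. Relative to the CKO mean instead, the lowest tumour on chromosome 4 was at 0.039 and the highest CKO animal at 0.022. On chromosome 9 the highest tumour was then at -0.050 and the lowest CKO animal at -0.022. CKO animals stayed between -0.11 and 0.15 on every autosome.

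Single tumours stood out on other chromosomes. Tumor_21349 was at -0.72 on chromosome 16 and Tumor_16713 at -0.41 on chromosome 10, while the tumour medians there were -0.15 and 0.08. Genes lower in tumours made up 33.5% of these autosomal genes and genes higher 22.6%.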
